A study of Mus musculus with 16 samples.

Results

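Genes of glycolysis and of the response to low oxygen were followed in whole lungs of mice that lack T1α (gene symbol Pdpn, a membrane protein of type I alveolar cells) and of wild-type mice, on Affymetrix Murine Genome U74Av2 arrays. The set of 37 genes was chosen by name: the enzymes and transporters that carry glucose to lactate, the hypoxia-inducible factors with their oxygen sensors, and genes that these factors induce. A probe set was taken for a gene when its annotation gave that symbol and no other, and the one with the highest mean log2 signal stood for the gene. This left 33 of the 37 genes, with 44 probe sets, among 8251 genes so annotated on the array. Gpi1, Eno1 and Egln3 had no probe set by this rule, and Gapdh had only control probe sets or probe sets shared with other symbols, which are given below as controls.

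The arrays were hybridized with RNA of single lungs: 3 from T1α(-/-) and 3 from T1α(+/+) pups at term, and 5 from T1α(-/-) and 5 from T1α(+/+) fetuses at embryonic day 18.5 (E18.5). The lungs came from crosses of T1α(+/-) mice, and term pups were taken within 10 min of delivery. Arrays F, G and H were T1α(-/-) at term, N, O and P T1α(+/+) at term, A to E T1α(-/-) at E18.5 and I to M T1α(+/+) at E18.5. The sources used here give no litter, sex, scan or hybridization batch, so p-values measure the spread between these lungs, and time cannot be told apart from any batch that went with it.

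In the cytoplasm, glycolysis turns glucose into pyruvate, which lactate dehydrogenase reduces to lactate when oxygen is short. Oxygen is sensed by prolyl hydroxylases that mark the alpha subunits of hypoxia-inducible factor (HIF) for destruction. When oxygen falls, the alpha subunit persists, pairs with Arnt and binds a short core motif near its target genes, which include glycolytic enzymes, the vascular growth factor Vegfa and genes that slow growth or respiration. The fetal lung develops at low oxygen and meets air at birth, and in the lung Vegfa from the epithelium is known to maintain alveolar capillaries.

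T1α itself checked the labels: its signal was 8.6 to 30.0 in T1α(-/-) lungs at term against 39.7 to 214.9 in T1α(+/+) lungs at term, and 1.4 to 21.2 against 60.2 to 135.5 at E18.5. Each array had a trimmed mean signal of 100.04 to 100.06, and precision is limited by how few arrays each group has. Array I stood apart from its group, with a median signal of 61.0 against 35.8 to 47.6 in the other arrays. Without it, 7 members passed over time in T1α(+/+) and 0 between genotypes at E18.5, the same counts as with it. The upper end of the scale was lower at term. The highest signal of an array was 6159 to 10576 at term and 12979 to 29524 at E18.5, and the 62 probe sets with a mean signal above 3200 had a median log2 fold change, term over E18.5, of -0.89 in T1α(-/-) and -0.96 in T1α(+/+). The 67 probe sets between 1600 and 3200 had medians of -0.54 and -0.55 in these genotypes. Below 1600, the medians of 5 signal classes lay between -0.09 and 0.02 in T1α(-/-) and between -0.06 and 0.00 in T1α(+/+).

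RefSeq promoter windows (build GRCm38.p6, 250 bases before to 50 after a start site) were matched by symbol for 34 of the 37 genes, in 50 windows. The core of the HIF binding motif was searched as ACGTG and as GCGTG on both strands. The first of these is also part of the E-box CACGTG, and it occurred for 22 of the 34 genes (64.7%) against 21.8% of the 27025 genes with a window, the second for 23 (67.6%) against 35.2%, and either for 30 (88.2%) against 46.7%. The windows of 6 genes are shown as examples that hold the core: Ddit4, Adm and Bnip3, which rose in both genotypes, P4ha1 and Hk2, which passed in T1α(-/-) and not in T1α(+/+), and Ldha, which fell in T1α(+/+) lungs. Capitals mark each match to either core on either strand.
Ddit4, chr10:59951721-59952020, minus strand: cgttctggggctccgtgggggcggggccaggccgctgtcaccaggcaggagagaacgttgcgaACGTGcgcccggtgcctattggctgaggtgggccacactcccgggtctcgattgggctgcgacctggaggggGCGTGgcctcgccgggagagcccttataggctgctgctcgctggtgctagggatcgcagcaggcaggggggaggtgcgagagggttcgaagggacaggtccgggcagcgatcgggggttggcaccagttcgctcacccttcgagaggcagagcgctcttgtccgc
Adm, chr7:110627407-110627706, plus strand: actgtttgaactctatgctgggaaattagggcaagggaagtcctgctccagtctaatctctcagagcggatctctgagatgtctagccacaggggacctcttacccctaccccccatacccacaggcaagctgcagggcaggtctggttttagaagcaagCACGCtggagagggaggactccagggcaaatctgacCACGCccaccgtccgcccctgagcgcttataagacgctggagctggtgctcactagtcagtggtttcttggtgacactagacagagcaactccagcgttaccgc
Bnip3, chr7:138909457-138909756, minus strand: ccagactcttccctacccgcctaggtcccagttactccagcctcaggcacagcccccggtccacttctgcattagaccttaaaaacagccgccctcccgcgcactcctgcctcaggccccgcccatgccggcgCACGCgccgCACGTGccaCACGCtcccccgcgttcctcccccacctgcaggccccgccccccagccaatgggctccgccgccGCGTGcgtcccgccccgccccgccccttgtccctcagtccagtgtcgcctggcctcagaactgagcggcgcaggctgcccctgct
P4ha1, chr10:59323046-59323345, plus strand: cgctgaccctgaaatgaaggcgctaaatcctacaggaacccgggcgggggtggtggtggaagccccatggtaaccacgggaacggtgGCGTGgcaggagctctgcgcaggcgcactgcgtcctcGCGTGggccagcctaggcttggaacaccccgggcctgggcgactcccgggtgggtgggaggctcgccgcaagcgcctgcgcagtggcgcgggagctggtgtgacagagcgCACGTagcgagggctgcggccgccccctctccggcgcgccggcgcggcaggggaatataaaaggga
Hk2, chr6:82774405-82774704, minus strand: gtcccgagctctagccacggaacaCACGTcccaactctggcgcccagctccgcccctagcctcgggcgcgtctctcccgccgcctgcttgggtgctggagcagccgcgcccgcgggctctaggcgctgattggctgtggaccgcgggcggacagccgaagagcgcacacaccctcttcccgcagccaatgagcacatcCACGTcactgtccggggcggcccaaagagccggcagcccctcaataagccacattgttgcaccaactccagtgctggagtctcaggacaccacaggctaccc
Ldha, chr7:46845554-46845853, plus strand: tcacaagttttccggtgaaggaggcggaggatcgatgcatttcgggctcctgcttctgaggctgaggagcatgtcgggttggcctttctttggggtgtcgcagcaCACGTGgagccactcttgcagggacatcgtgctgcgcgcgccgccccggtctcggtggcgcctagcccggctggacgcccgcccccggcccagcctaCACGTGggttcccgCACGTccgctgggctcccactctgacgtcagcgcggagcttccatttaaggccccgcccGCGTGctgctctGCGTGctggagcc
Ldha has another window, and the one shown held 5 matches to ACGTG and 2 to GCGTG, the Bnip3 window 2 and 3, and the Adm window 0 and 2. Of genes not shown that rose in both genotypes, Vegfa had a window with 1 match to each core and another with none, and Mxi1 had 2 windows with 1 match and 1 with none. A match is a run of letters and not a measured binding site.

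The change between E18.5 and term was the larger of the contrasts for this set. On log2(signal + 16), limma passed 11 of the 28 members tested in T1α(-/-) lungs at an adjusted p under 0.05, 10 higher and 1 lower at term, against 26.9% of all 6145 probe sets tested (13.8% higher and 13.1% lower). In T1α(+/+) lungs 7 of 28 passed, 5 higher and 2 lower, against 18.7% of 6097 probe sets (10.7% higher and 8.07% lower). The members that fell were 3.57% in T1α(-/-) and 7.14% in T1α(+/+), and those that rose were 35.7% and 17.9%. Term and E18.5 lungs did not overlap in 12 of 28 members in T1α(-/-), against 30.8% of all probe sets, and in 4 of 28 in T1α(+/+), against 24.5%. An unadjusted p under 0.05 was reached by 12 of 28 in T1α(-/-), against 40.7% of all, and by 12 of 28 in T1α(+/+), against 34.5%. The members' median log2 fold change was 0.09 in T1α(-/-) and -0.04 in T1α(+/+), against -0.06 and -0.04 over all probe sets tested. Ddit4, Vegfa, Bnip3 and Mxi1 rose in both genotypes. Adm also rose in both and is in the counts above, but it passed the filter on low signals only through its term lungs. The whole lung was measured, so fewer cells of a type and less RNA per cell cannot be told apart.

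**Figure D1:**
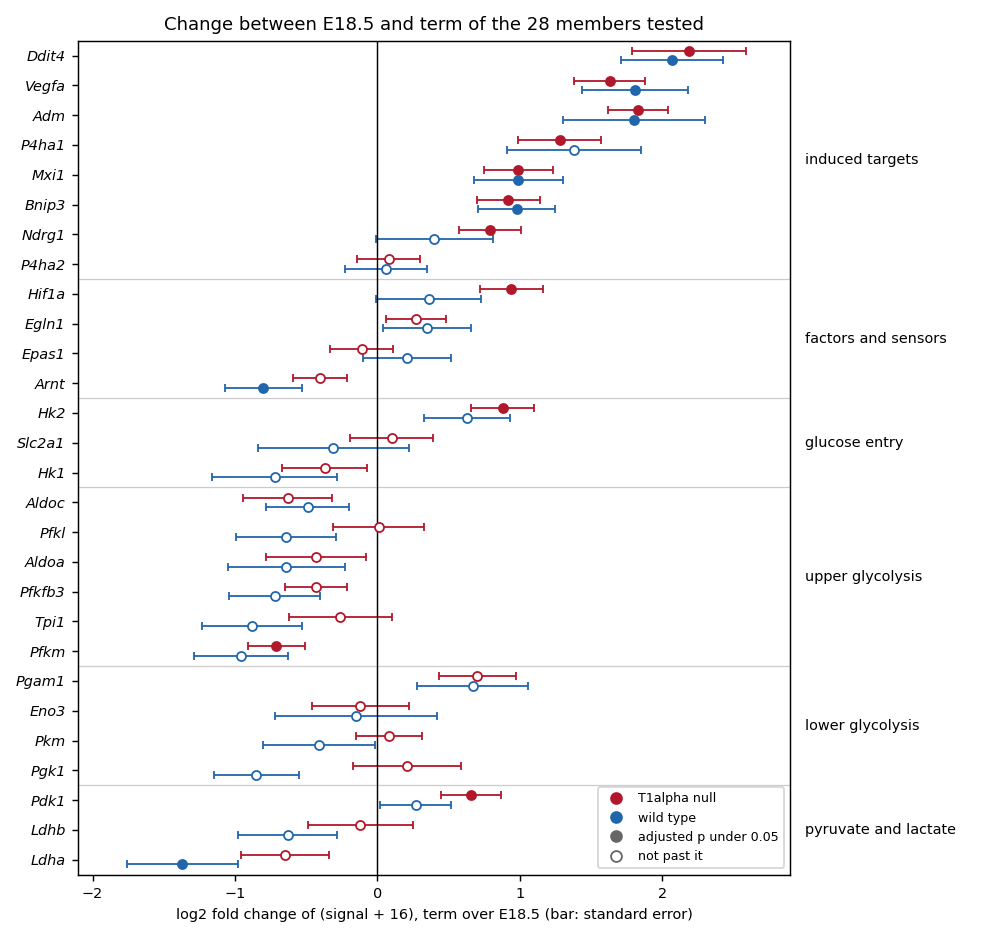
Log2 fold change, term over E18.5, of the 28 members tested, by role, in T1α(-/-) (red) and T1α(+/+) (blue) lungs. Points are limma estimates on log2(signal + 16) with standard errors (3 term and 5 E18.5 arrays per genotype), filled where the adjusted p was under 0.05. All 8 induced targets lie above 0 in both genotypes, and the 6 upper glycolytic enzymes lie below 0 except Pfkl in T1α(-/-), at 0.01. Adm passed the filter on low signals only through its term lungs, and Pfkfb3 only through its E18.5 lungs.

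The 8 members grouped here as induced targets all had estimates above 0 in both genotypes by the probe set used. They were Ddit4, Vegfa, Adm, Bnip3, Mxi1, P4ha1, P4ha2 and Ndrg1. Members grouped under other roles, such as Slc2a1, Slc2a3, Pdk1, Egln1 and glycolytic enzymes, can also be HIF targets and are given below. Their estimates did not all lie above 0, so the shared direction holds for this grouping only. Of the 8 induced targets, 7 passed the test in T1α(-/-) and 5 in T1α(+/+), all higher, with medians of 1.14 and 1.18. Of all probe sets, 13.8% passed as higher in T1α(-/-) and 10.7% in T1α(+/+). Adm is among the induced targets that passed, and passed the filter on low signals only through its term lungs. Without Adm the counts were 6 of 7 in T1α(-/-) and 4 of 7 in T1α(+/+). Ddit4 (probe set 103460_at) encodes an inhibitor of the growth kinase mTOR and is induced by low oxygen and by glucocorticoids. Ddit4 signals in T1α(-/-) lungs were 684, 1216 and 903 at term, against 198, 57.9, 223, 314 and 259 at E18.5. Ddit4 signals in T1α(+/+) lungs were 1296, 1132 and 699 at term, against 163, 154, 492, 166 and 292 at E18.5. Every term lung was above every E18.5 lung. Its log2 fold change was 2.19 ± 0.40 (SE, adjusted p = 0.00264) in T1α(-/-) and 2.07 ± 0.36 (adjusted p = 0.00177) in T1α(+/+). The wild-type call was lost with the level of Xist, the RNA of the inactive X chromosome, as a covariate (1.64, adjusted p = 0.094). Xist read 6.7 to 10.2 in T1α(+/+) lungs at term and 14.3 to 80.0 at E18.5. In T1α(+/+) this covariate therefore cannot be separated from time, here and for the genes below.

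Vegfa (103520_at), the growth factor of endothelial cells, had signals of 495, 310.0 and 482 in T1α(-/-) lungs at term, against 158, 117, 176, 106 and 85.4 at E18.5. Vegfa signals in T1α(+/+) lungs were 649, 287 and 654 at term, against 114, 85.5, 283, 146 and 89.3 at E18.5. The term and E18.5 lungs did not overlap in either genotype, although array O at term and array K at E18.5 came within a few units of each other. The log2 fold change was 1.63 ± 0.25 (adjusted p = 0.00109) in T1α(-/-) and 1.81 ± 0.37 (adjusted p = 0.00399) in T1α(+/+). The wild-type call was lost with Xist as a covariate (1.55, adjusted p = 0.118) and with the methods' t-test (adjusted p = 0.0783).

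Adm (102798_at) encodes adrenomedullin, a peptide that widens vessels. Adm signals in T1α(-/-) lungs were 194, 191 and 193 at term, against 37.3, 57.4, 41.5, 55.4 and 27.7 at E18.5. Adm signals in T1α(+/+) lungs were 61.9, 328 and 137 at term, against 20.4, 10.7, 118, 15.2 and 35.1 at E18.5. The term lungs were nearly equal in T1α(-/-) and widely spread in T1α(+/+), where array K at E18.5 lay above array N at term. Adm rose by 1.83 ± 0.21 on the log2 scale (adjusted p = 0.000312) in T1α(-/-) and by 1.80 ± 0.50 (adjusted p = 0.0218) in T1α(+/+). The E18.5 medians of 41.5 in T1α(-/-) and 20.4 in T1α(+/+) lay under the filter levels of 51 and 53.4, and with no filter the wild-type adjusted p was 0.0419. The wild-type call was lost without array O (1.25, adjusted p = 0.14) or without array J (1.60, adjusted p = 0.0506). It was also lost with the methods' t-test (adjusted p = 0.22) and with Xist as a covariate (adjusted p = 0.299). With the GAPDH 3'/5' ratio, given below, as a covariate it was lost too (adjusted p = 0.0746).

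Bnip3 (93836_at), a mitochondrial protein that promotes removal of mitochondria, had signals of 179, 138 and 197 in T1α(-/-) lungs at term, against 56.5, 67.8, 93.6, 100.3 and 102 at E18.5. Bnip3 signals in T1α(+/+) lungs were 187, 133 and 238 at term, against 74.6, 60.2, 78.4, 113 and 105 at E18.5. Neither genotype showed overlap. The log2 fold change was 0.92 ± 0.22 (adjusted p = 0.0104) in T1α(-/-) and 0.98 ± 0.27 (adjusted p = 0.0203) in T1α(+/+), and the wild-type call was lost without array N (adjusted p = 0.0944) or array P (adjusted p = 0.0693). Both the methods' t-test (adjusted p = 0.0763) and Xist as a covariate (adjusted p = 0.0688) also removed that call.

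Mxi1 (160138_at) encodes a repressor that competes with Myc for its partner Max. Mxi1 signals in T1α(-/-) lungs were 300.2, 262 and 228 at term, against 71.8, 134, 149, 154 and 129 at E18.5. Mxi1 signals in T1α(+/+) lungs were 339, 256 and 186 at term, against 91.3, 71.4, 213, 118 and 142 at E18.5. The groups were apart in T1α(-/-), and array K reached into the term range in T1α(+/+). Both log2 fold changes came to 0.99, with SE 0.24 (adjusted p = 0.0099) in T1α(-/-) and SE 0.31 (adjusted p = 0.0382) in T1α(+/+). The call rested on array F in T1α(-/-) (adjusted p = 0.0503 without it), and in T1α(+/+) it was lost without any of arrays N, O, I, J or L (adjusted p = 0.0682 to 0.209). Quantile normalization, centring on the array median and no filter also removed the wild-type call (adjusted p = 0.0505 to 0.0684). So did the methods' t-test and the GAPDH ratio or Xist as a covariate (adjusted p = 0.119 to 0.295).

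P4ha1 (104139_at), a subunit of the prolyl hydroxylase that matures collagen, and Ndrg1 (96596_at), a stress-induced cytoplasmic protein, passed only in T1α(-/-), and their difference between genotypes is tested below. P4ha1 signals in T1α(-/-) lungs were 272, 475 and 726 at term, against 185, 234, 197, 132 and 161 at E18.5 (log2 fold change 1.28 ± 0.29, adjusted p = 0.00728). P4ha1 signals in T1α(+/+) lungs were 339.8, 475 and 384 at term, against 68.7, 77.7, 551, 161 and 107 at E18.5 (1.38 ± 0.47, adjusted p = 0.0503). A single E18.5 lung, array K, stood above all wild-type term lungs, and without it P4ha1 passed in T1α(+/+) (1.84, adjusted p = 0.000963). Ndrg1 signals in T1α(-/-) lungs were 557, 503 and 714 at term, against 301, 254, 420.2, 377 and 336 at E18.5 (0.79 ± 0.22, adjusted p = 0.02). Ndrg1 signals in T1α(+/+) lungs were 473, 662 and 518 at term, against 241, 251, 1138, 463 and 353 at E18.5 (0.40 ± 0.41, adjusted p = 0.511). The groups were apart in T1α(-/-), and array K was again the highest of the wild-type lungs. The Ndrg1 call was lost without array F (adjusted p = 0.0571) or array H (adjusted p = 0.0785), and its other probe set gave 0.95 ± 0.28 (adjusted p = 0.0262) in T1α(-/-). With all 16 arrays in 1 fit the Ndrg1 call was lost, and with the methods' t-test the null P4ha1 call was lost. P4ha2, the isoform of P4ha1, ranged from 106.1 to 247.0 over all lungs, and its estimates were 0.08 ± 0.22 in T1α(-/-) and 0.06 ± 0.29 in T1α(+/+). Another P4ha2 probe set gave -0.33 ± 0.20 and -0.38 ± 0.27 in these genotypes, the opposite sign.

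**Figure D2:**
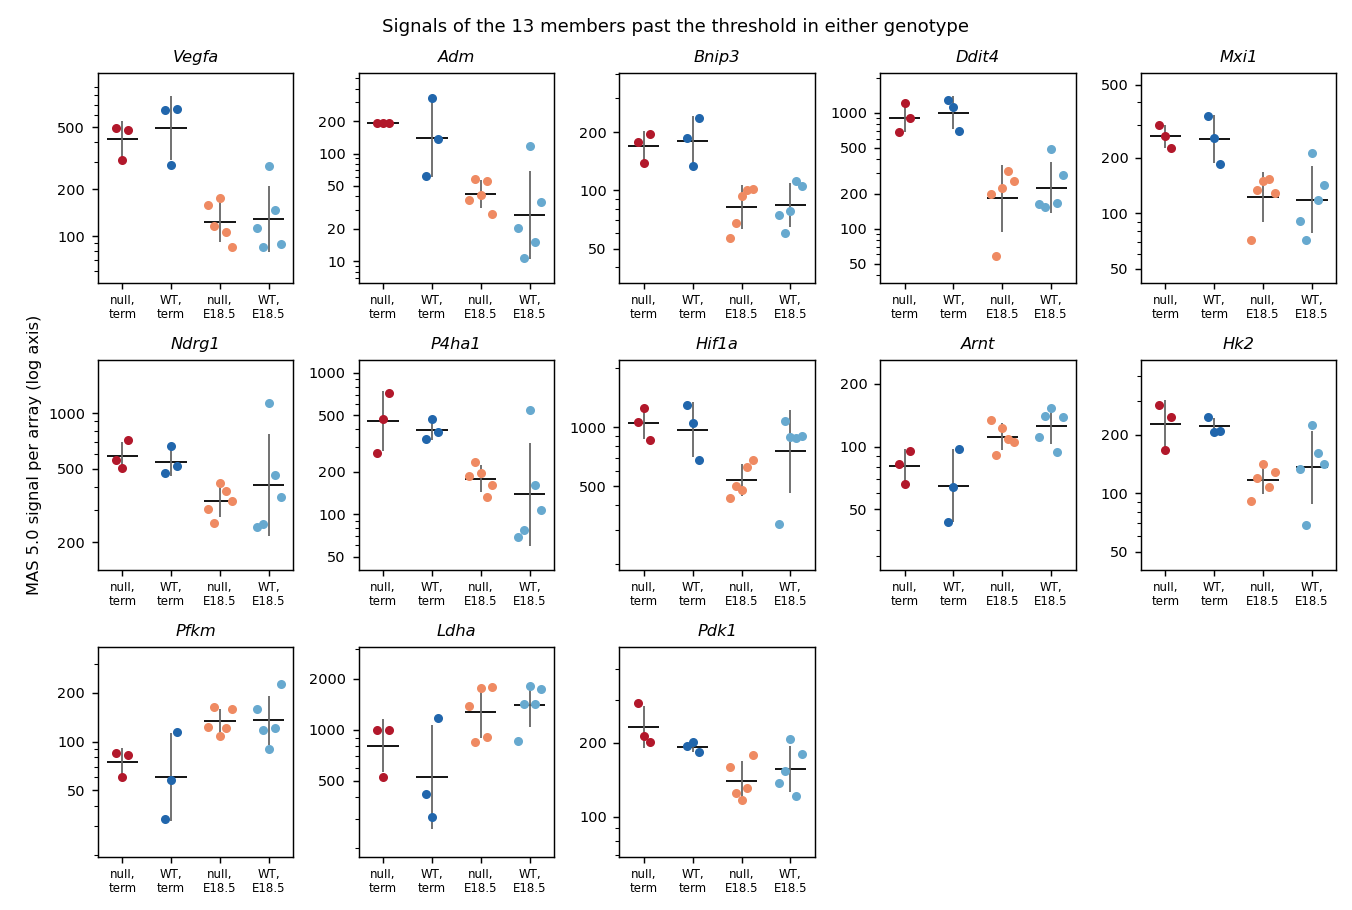
MAS 5.0 signal per array (log axis) of the 13 members that passed an adjusted p of 0.05 in either genotype, in the order T1α(-/-) term, T1α(+/+) term, T1α(-/-) E18.5, T1α(+/+) E18.5 (n = 3, 3, 5 and 5). Each dot is 1 lung, the horizontal line the geometric mean and the vertical line 1 SD of the log2 signals. Ddit4, Vegfa and Bnip3 show no overlap between term and E18.5 in either genotype, while 1 wild-type E18.5 lung is high in P4ha1 and Ndrg1.

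Among the factors and sensors, the factor Hif1a (98628_f_at) rose in T1α(-/-) lungs, and its partner Arnt fell in T1α(+/+) lungs. Hif1a signals in T1α(-/-) lungs were 1064, 1257 and 863 at term, against 438, 500.0, 482, 626 and 684 at E18.5 (0.94 ± 0.22, adjusted p = 0.00922). Hif1a signals in T1α(+/+) lungs were 1297, 1049.9 and 683 at term, against 319.9, 1075, 897, 880.3 and 902 at E18.5 (0.36 ± 0.37, adjusted p = 0.514). The null lungs were fully apart, whereas the wild-type lungs overlapped and array I lay far below the rest of its group (0.06, adjusted p = 0.896, without it). A second Hif1a probe set, which may share probes with the first, gave 1.06 ± 0.22 (adjusted p = 0.00442) in T1α(-/-) and 0.47 ± 0.36 (adjusted p = 0.369) in T1α(+/+).

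Arnt (92529_s_at) had signals of 82.6, 66.2 and 95.6 in T1α(-/-) lungs at term, against 134, 91.5, 123, 108 and 106 at E18.5 (-0.40 ± 0.19, adjusted p = 0.141). Arnt signals in T1α(+/+) lungs were 43.7, 63.8 and 97.9 at term, against 112, 140.3, 153, 94.5 and 139 at E18.5 (-0.80 ± 0.27, adjusted p = 0.0483). Term lungs lay mostly below E18.5 lungs in both genotypes, with overlap. The wild-type call was close to the threshold and was lost without any of arrays N, O, J, K or M (adjusted p = 0.0723 to 0.266). Several other settings removed it too, such as quantile normalization (adjusted p = 0.071) and the methods' t-test (adjusted p = 0.106). Epas1, which encodes the other main alpha subunit, ranged from 29.9 to 90.1, with -0.11 ± 0.22 in T1α(-/-) and 0.21 ± 0.31 in T1α(+/+). In T1α(+/+) Epas1 passed the filter on low signals only through its term lungs. The prolyl hydroxylase Egln1 ranged from 85.4 to 311.7, with 0.27 ± 0.21 and 0.35 ± 0.31 in these genotypes.

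Glucose entry and phosphorylation gave 1 call of 3 members tested, higher in T1α(-/-), where 13.8% of all probe sets passed as higher. Hk2 (94375_at), the inducible hexokinase, had signals of 285, 167 and 248 in T1α(-/-) lungs at term, against 91.6, 119.9, 142, 108 and 129 at E18.5 (0.88 ± 0.22, adjusted p = 0.0114). Hk2 signals in T1α(+/+) lungs were 247, 208 and 209.6 at term, against 133, 68.6, 225, 160.2 and 142 at E18.5 (0.63 ± 0.30, adjusted p = 0.151). Null lungs did not overlap, and among wild-type lungs array K alone reached the term range. Without array F the null call was lost (0.73, adjusted p = 0.0676). Hk1, the constitutive hexokinase, ranged from 731.4 to 4304.9, with -0.37 ± 0.30 in T1α(-/-) and -0.72 ± 0.44 in T1α(+/+), in the signal class whose median over all probe sets was -0.54 and -0.55. The glucose transporter Slc2a1 ranged from 27.0 to 404.8, with 0.10 ± 0.29 in T1α(-/-) and -0.31 ± 0.53 in T1α(+/+). Slc2a3, the neuronal-type transporter, stayed under the filter on low signals. It read 15.3 to 18.4 in T1α(-/-) lungs at term against 31.2 to 68.8 at E18.5, and 11.7 to 22.4 in T1α(+/+) lungs at term against 19.6 to 61.9 at E18.5.

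The upper glycolytic enzymes did not rise with the induced targets. Of the 6 tested, 1 passed, lower, in T1α(-/-) and 0 passed in T1α(+/+), with medians of -0.43 and -0.68. Of all probe sets, 13.1% passed as lower in T1α(-/-) and 8.07% in T1α(+/+). Pfkfb3 was among the 6 and passed the filter on low signals only through its E18.5 lungs. Its term medians of 41.4 in T1α(-/-) and 26.2 in T1α(+/+) lay under the filter levels of 51 and 53.4. Pfkm (94438_at), the muscle-type subunit of phosphofructokinase, had signals of 84.9, 60.3 and 82.3 in T1α(-/-) lungs at term, against 123, 163, 108, 120.4 and 159 at E18.5 (-0.71 ± 0.20, adjusted p = 0.022). Pfkm signals in T1α(+/+) lungs were 33.1, 57.5 and 115 at term, against 158, 117, 89.6, 122 and 226 at E18.5 (-0.96 ± 0.33, adjusted p = 0.0527). The null groups were apart and the wild-type groups overlapped through array P, without which Pfkm passed in T1α(+/+) (adjusted p = 0.0132), as it also did without array K (adjusted p = 0.0311). In T1α(-/-) the call was lost without array F (adjusted p = 0.0503) or array G (adjusted p = 0.0931). It was also lost with all 16 arrays in 1 fit and with the methods' t-test. The aldolases, triose phosphate isomerase (Tpi1), the liver-type subunit Pfkl and Pfkfb3, which makes the activator of phosphofructokinase, had estimates of -0.63 to 0.01 in T1α(-/-) and -0.88 to -0.49 in T1α(+/+), none past the threshold. The Aldoa probe sets differed in sign, at -0.43 ± 0.35 and 0.06 ± 0.29 in T1α(-/-) and -0.64 ± 0.41 and 0.26 ± 0.40 in T1α(+/+). Pfkp stayed under the filter, at 16.9 to 67.1 over all lungs.

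Of the lower glycolytic enzymes 4 were tested and 0 passed in either genotype, with 1 at an unadjusted p under 0.05 in each. Of all probe sets, 26.9% passed in T1α(-/-) and 18.7% in T1α(+/+), and 40.7% and 34.5% had an unadjusted p under 0.05. Pgk1, phosphoglycerate kinase, was 179 to 674 in T1α(-/-) lungs at term against 167 to 400.3 at E18.5 (0.21 ± 0.38), and 215 to 274 in T1α(+/+) lungs at term against 279.7 to 738 at E18.5 (-0.85 ± 0.30, adjusted p = 0.0555). Wild-type Pgk1 was lower in every term lung than in any E18.5 lung, and null Pgk1 overlapped. Pgam1, the phosphoglycerate mutase of most tissues, had estimates of 0.70 ± 0.27 (adjusted p = 0.0676) in T1α(-/-) and 0.67 ± 0.39 (adjusted p = 0.236) in T1α(+/+). Pyruvate kinase Pkm ranged from 489.1 to 2309.2, with 0.08 ± 0.23 in T1α(-/-) and -0.41 ± 0.39 in T1α(+/+). Its second probe set had estimates of 0.64 ± 0.27 and 0.79 ± 0.40 in these genotypes, neither past the threshold. The neuronal enolase Eno2 stayed under the filter at 5.4 to 41.7.

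For the fate of pyruvate, Ldha, which makes lactate, and Pdk1, which holds pyruvate back from the mitochondrial cycle, gave 1 call each, in different genotypes. That was 1 of 3 tested in each genotype. Of all probe sets, 13.8% passed as higher in T1α(-/-) and 8.07% as lower in T1α(+/+). Ldha (96072_at) signals in T1α(-/-) lungs were 999.7, 530.0 and 995 at term, against 1374, 850.0, 1764, 909.6 and 1793 at E18.5 (-0.65 ± 0.31, adjusted p = 0.135). Ldha signals in T1α(+/+) lungs were 417, 305 and 1175 at term, against 859, 1426, 1813, 1415 and 1734 at E18.5 (-1.37 ± 0.39, adjusted p = 0.0236). Arrays N and O were far below every other wild-type lung and array P was within the E18.5 range. The call was lost without array N (-1.20, adjusted p = 0.14) or array O (-0.98, adjusted p = 0.145). Centring on the array median (adjusted p = 0.0866) and the methods' t-test (adjusted p = 0.146) also removed it. Xist as a covariate did so too (adjusted p = 0.165). Pdk1 (100977_at) signals in T1α(-/-) lungs were 289.6, 214 and 201 at term, against 160.0, 125, 117, 131 and 179 at E18.5 (0.66 ± 0.21, adjusted p = 0.0321). Pdk1 signals in T1α(+/+) lungs were 194, 201 and 184 at term, against 137, 153, 207, 121 and 180.4 at E18.5 (0.27 ± 0.25, adjusted p = 0.456). Null lungs did not overlap, and array K lay above all wild-type term lungs. The null Pdk1 call was lost without any of arrays F, G, C or D (adjusted p = 0.057 to 0.16). It was also lost with no filter, with the methods' t-test and with Xist as a covariate. Ldhb, the heart-type lactate dehydrogenase, ranged from 24.5 to 174.1, with -0.12 ± 0.37 in T1α(-/-) and -0.63 ± 0.35 in T1α(+/+), and the lactate transporter Slc16a1 stayed under the filter at 1.5 to 25.7. In T1α(+/+) Ldhb passed that filter only through its E18.5 lungs.

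Tpi1, Ldha and the Aldoa probe set used were low in the same 3 term lungs. The GAPDH control probe sets, which read the 3' end and the 5' end of the transcript separately, had 3'/5' ratios of 1.11, 2.63 and 0.83 in T1α(-/-) lungs F, G and H and 1.84, 2.55 and 0.85 in T1α(+/+) lungs N, O and P. At E18.5 the ratios were 0.97 to 1.72 in T1α(-/-) and 0.96 to 1.59 in T1α(+/+). The 3 term lungs with the highest ratios, G, N and O, were the 3 lowest of all 16 in Tpi1 (351, 430.2 and 416) and in Aldoa (518, 593 and 609.9), and the 3 lowest in Ldha. The other Aldoa probe set did not have this order, with 638, 808.2 and 805.3 in G, N and O and lower signals in I (296.8), A (401.1) and L (549). The beta-actin 3'/5' ratio was 1.97 in G, 2.72 in N and 1.35 in O, against 1.08 to 1.91 in the other lungs, so O stood apart by the GAPDH ratio and not by this one. Array G had the lowest signal of its group in 22 of the 33 members, against 35.0% of all probe sets. At E18.5 the arrays with the highest ratios, B and K, read 882 and 1538 in Tpi1. B was the lowest of the T1α(-/-) E18.5 lungs in Tpi1 (others 905 to 1195) and in Ldha (850.0, others 909.6 to 1793). K was the highest of the T1α(+/+) E18.5 lungs in both genes. GAPDH itself, by the 3' probe set, averaged 1940 ± 643 in T1α(-/-) lungs at term against 4390 ± 872 at E18.5, and 1430 ± 700 in T1α(+/+) lungs at term against 4270 ± 1090 at E18.5 (SD, n = 3 and 5, 2-sided exact permutation p = 0.0357 in each, the smallest that 3 against 5 allows). Beta-actin, a control outside glycolysis, by its 3' probe set averaged 2820 ± 135 in T1α(-/-) lungs at term against 6470 ± 1890 at E18.5, and 2860 ± 557 in T1α(+/+) lungs at term against 6240 ± 1090 at E18.5 (exact permutation p = 0.0357 in each). Both controls are bright, in the range where most signals were lower at term. With the ratio as a covariate, Ldha in T1α(+/+) was at -1.03 (adjusted p = 0.0762), and 3 members passed in T1α(+/+) and 11 in T1α(-/-). GAPDH is itself a glycolytic gene of this set. Its 3' signals were 1198, 1041 and 1003 in G, N and O, against 2343, 2275 and 2234 in F, H and P. Its 5' signals were 455, 566 and 393 in G, N and O, against 2118, 2750 and 2619 in F, H and P. What set these ratios was not tested. Leaving out G, N and O takes only G from the T1α(-/-) fit, in which 9 members then passed. In T1α(+/+) P was then the only term lung left and 0 passed, with estimates of 2.19 for Vegfa, 1.55 for Ddit4 and 1.34 for Bnip3.

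**Figure D3:**
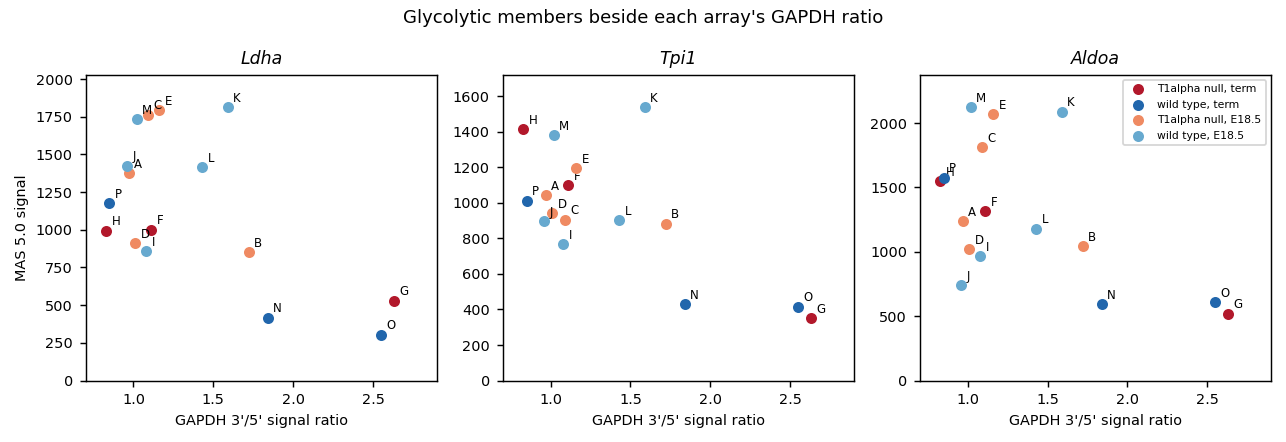
MAS 5.0 signals of Ldha, Tpi1 and Aldoa against the ratio of the GAPDH 3' to 5' control signals, 1 point per array with its letter (n = 16), coloured by group. Arrays G, N and O, with ratios of 2.63, 1.84 and 2.55, have the lowest signals of Tpi1 and of the Aldoa probe set plotted. Arrays B and K at E18.5, with 1.72 and 1.59, are not that low. B is the lowest of its own group in Tpi1 and Ldha, and K is the highest of its group in these genes.

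Pgam2 and Eno3, the muscle isoforms of phosphoglycerate mutase and enolase, varied between lungs far more than between groups. Pgam2 read 139, 1.9 and 19.5 in T1α(-/-) and 12.1, 18.2 and 134 in T1α(+/+) lungs at term, and 16, 29.5, 52.3, 38.6 and 103 in T1α(-/-) and 15.3, 12.5, 2.0, 53.2 and 290.3 in T1α(+/+) lungs at E18.5. Eno3 was highest in array M (742), followed by array P (355) and array F (257). The summed signal of 16 cardiac and skeletal muscle markers was 22580 in array M, 14230 in F and 4826 in P, against 1535 to 8572 in the other lungs. In P the skeletal actin Acta1 read 2317, but the cardiac markers Myh6 and Tnnt2 read 79.9 and 58.2. In M the cardiac troponin Tnnt2 read 1723. Arrays E and O had higher muscle sums than P (8572 and 8010), with Eno3 at 207 and 110 and Pgam2 at 103 and 18.2. The markers' part in these values was not tested. Without the 3 lungs with the highest muscle sums (E, F and M), 6 members passed in T1α(-/-) and 6 in T1α(+/+). E and F are T1α(-/-) lungs and M is a T1α(+/+) lung, so each fit left out only its own.

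**Figure D4:**
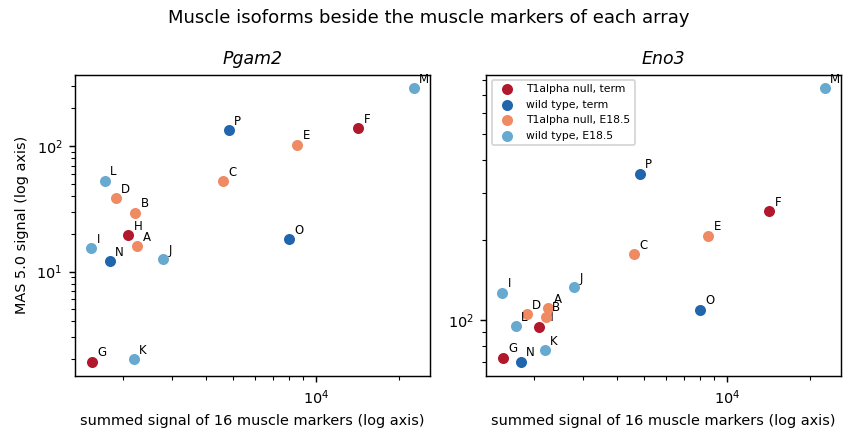
MAS 5.0 signals of Pgam2 and Eno3 against the summed signal of 16 muscle markers, both axes log, 1 point per array with its letter (n = 16), coloured by group. Array M has the highest value on both axes, and array P lies high in both genes at a lower marker sum.

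No member passed the test between genotypes by limma or by the methods' t-test after adjustment. At term, 0 of 27 members passed, against 0.0% of all 5831 probe sets, and 0 had an unadjusted p under 0.05 (0.686% of all). At E18.5, 0 of 26 passed, against 0.0343% of 5825, the groups overlapped in every member (1.13% of all probe sets did not), and 1 had an unadjusted p under 0.05 (5.3% of all). Estimates of T1α(-/-) over T1α(+/+) lay between -0.23 and 0.65 at term, 22 of 27 above 0, with a median of 0.16 against 0.01 over all probe sets. At E18.5 they lay between -0.75 and 0.47, 18 of 26 below 0, with a median of -0.11 against 0.04. The highest, 0.47, was Epas1, which passed the filter on low signals only through its T1α(-/-) lungs. The 95% intervals reached 0.48 to 1.23 on either side of an estimate at term and 0.39 to 0.92 at E18.5, so differences of that size were within the error.

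Vegfa was at -0.23 (95% interval -1.02 to 0.55) at term and at -0.06 (-0.66 to 0.54) at E18.5. Hif1a was at 0.10 (-0.55 to 0.76) at term and at -0.48 (-1.08 to 0.13) at E18.5. Adm was at 0.38 (-0.61 to 1.37) at term and was under the filter at E18.5, where it read 27.7 to 57.4 in T1α(-/-) and 10.7 to 118 in T1α(+/+) lungs. The member with the lowest p was Pgk1 at E18.5, with 205, 167, 248, 352 and 400.3 in T1α(-/-) lungs against 279.7, 476, 459, 408 and 738 in T1α(+/+) lungs (-0.75 ± 0.27, p = 0.0141, adjusted p = 0.856, exact permutation p = 0.0476). In T1α(-/-), 3 lungs lay below all wild-type lungs and the others overlapped. At term Pdk1 alone did not overlap, with 201.1 to 289.6 in T1α(-/-) against 183.8 to 201.0 in T1α(+/+) lungs (0.25 ± 0.23), where 3.29% of all probe sets did not overlap and 0.1 is the smallest p that 3 against 3 allows.

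The difference between genotypes in the change to term was tested over all 16 arrays. None of the 28 members passed, 0 had an unadjusted p under 0.05 (1.47% of 6405 probe sets), and 0.0% of all probe sets passed. The estimates, T1α(-/-) minus T1α(+/+), lay between -0.32 and 1.05 with a median of 0.25 against -0.01 over all probe sets. For Hif1a the difference was 0.58 (95% interval -0.36 to 1.52), for Ldha 0.73 (-0.39 to 1.84), for P4ha1 -0.11 (-1.40 to 1.19), for Ndrg1 0.39 (-0.66 to 1.43) and for Pgk1 1.05 (-0.01 to 2.12). A call in 1 genotype only was therefore not shown to be a difference between them. The changes in both genotypes and the comparisons at each time share arrays.

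**Figure D5:**
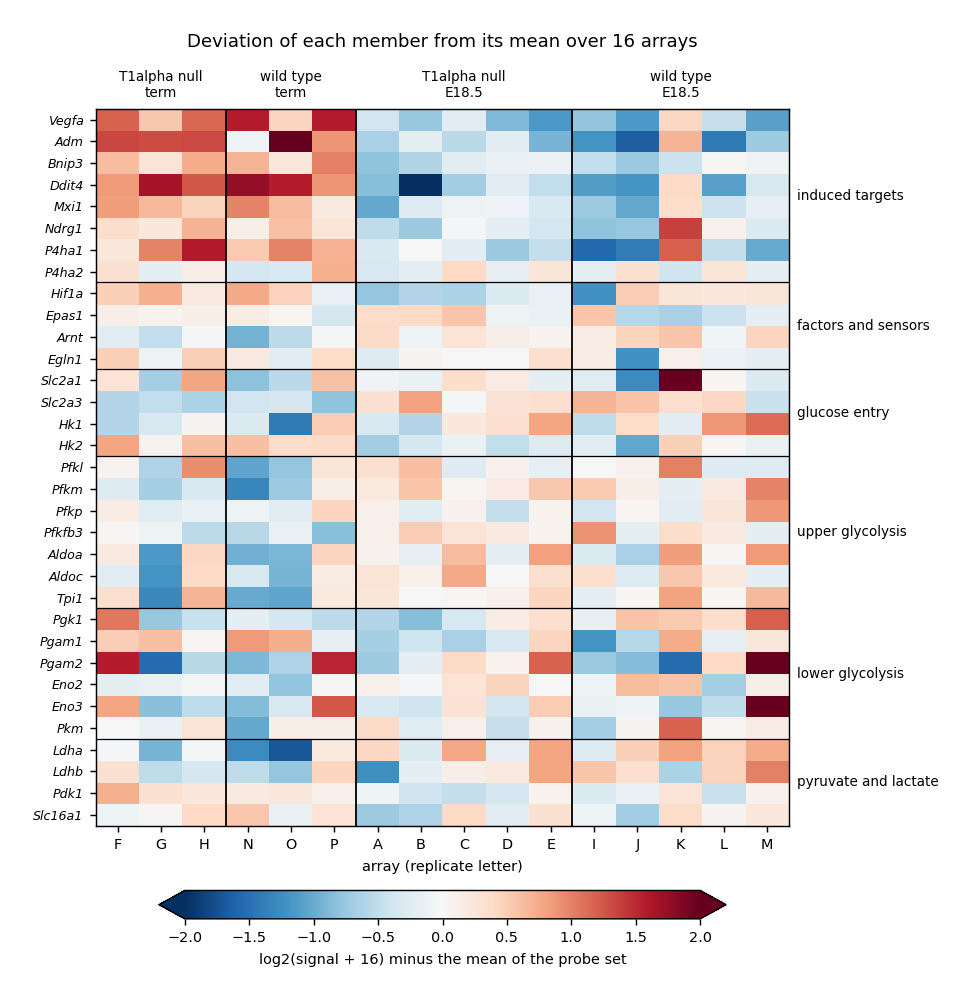
Log2(signal + 16) of the 33 measured members minus each member's mean over 16 arrays, in rows by role and in columns by group (T1α(-/-) term, T1α(+/+) term, T1α(-/-) E18.5, T1α(+/+) E18.5), with colours limited to -2 and 2. Ddit4, Vegfa and Bnip3 are higher (red) in every term array than in any E18.5 array of the same genotype, and arrays G, N and O are the 3 lowest (blue) in Aldoa, Tpi1 and Ldha.

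Array K, a wild-type lung at E18.5, stood apart in several hypoxia genes. It had the highest signal of its group in 17 of the 33 members, against 23.6% of all probe sets. Slc2a1 read 405 in K and 27.0 to 90.4 in the other 4 wild-type lungs, Adm 118 and 10.7 to 35.1, P4ha1 551 and 68.7 to 161, and Ndrg1 1138 and 241 to 463. Its summed macrophage (605) and neutrophil (349) markers were the lowest of all lungs. Its fibroblast (4955) and type I cell (12480) sums were the highest by little, with 4862 in array E and 12440 in array A. T1α, a type I marker, was lower in K (60.2) than in the other wild-type E18.5 lungs (111.6 to 135.5). Its type II cell markers (16100) were the lowest at E18.5. The part of these markers in the members' signals was not tested. Without K, 8 members passed in T1α(+/+), and 0 passed between genotypes at E18.5.

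Other genes of oxygen sensing and of glucose use, none of them members, were read from lists, beside 13.8% higher and 13.1% lower of all probe sets in T1α(-/-) and 10.7% higher and 8.07% lower in T1α(+/+). Of 43 further hypoxia response genes, 34 were on the array. In T1α(-/-) 7 rose and 2 fell of 22 tested, and in T1α(+/+) 4 rose and 1 fell of 20, with medians of 0.11 and 0.18. Igfbp3, a binding protein of insulin-like growth factors, rose by 1.38 ± 0.34 in T1α(-/-) and 1.59 ± 0.31 in T1α(+/+), and Cited2, which restrains HIF, by 1.11 ± 0.28 and 1.62 ± 0.32. Hif3a, a HIF subunit with inhibitory forms, fell by 0.98 ± 0.28 on the log2 scale in T1α(-/-) and by 0.96 ± 0.26 in T1α(+/+). Of the pentose phosphate and gluconeogenesis genes 3 of 9 tested fell in T1α(-/-) and 2 of 9 in T1α(+/+), and transketolase Tkt was among them in both (-1.56 ± 0.28 and -1.28 ± 0.27). Of the glycogen genes, 2 rose and 2 fell of 8 tested in T1α(-/-), and 0 rose and 1 fell of 10 in T1α(+/+). In the pyruvate dehydrogenase and citrate cycle list, 1 rose (Pdk3, 1.1 ± 0.24) and 1 fell (Dlat, -0.78 ± 0.27) of 17 in T1α(-/-), and 0 of 17 passed in T1α(+/+). No further hexose enzyme of 4 tested passed in either genotype. Of the other transporter genes, 3 were tested in T1α(-/-) and 1 in T1α(+/+). The lactate transporter chaperone Bsg passed, lower in both (-0.88 ± 0.26 and -0.99 ± 0.33), and in T1α(+/+) it was the only gene of that list tested. Between genotypes, 0 genes of these lists passed at term or at E18.5.

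Early stress genes moved with the same contrast. Against the same shares of all probe sets, of 15 tested immediate early and glucocorticoid response genes, 8 rose and 0 fell in T1α(-/-), and 11 rose and 0 fell in T1α(+/+), with Fos at 3.41 ± 0.41 and 5.03 ± 0.28 and the glucocorticoid-induced kinase Sgk1 at 2.08 ± 0.29 and 3.09 ± 0.40. Of 9 lists of cell type markers, macrophage (5 tested) and cardiac and skeletal muscle (10 tested) had no call over time in either genotype. The 8 measured erythroid markers summed to 6750 to 11200 in T1α(-/-) lungs at term against 17100 to 30500 at E18.5, and to 7220 to 7770 in T1α(+/+) lungs at term against 12900 to 30800 at E18.5, and 2 of 6 tested fell in each genotype. Hba-a1 made up most of these sums, at 6159 to 10576 at term and 11892 to 29524 at E18.5. It lies in the bright range where most signals were lower at term. The 10 endothelial markers summed to 5140 to 5890 against 2990 to 4650 in T1α(-/-) and 4280 to 5970 against 2560 to 4160 in T1α(+/+), and 1 of 10 rose in T1α(-/-), under the share of all probe sets, and 2 of 9 in T1α(+/+). The 6 type II cell markers summed to 11000 to 14500 against 21300 to 34400 in T1α(-/-) and 10300 to 12000 against 16100 to 30600 in T1α(+/+), and 1 rose and 2 fell of 5 tested in each genotype. Those that fell were the bright surfactant genes Sftpc and Sftpb, in the range where most signals were lower at term, and the list's median log2 fold change was -0.16 in T1α(-/-) and 0.37 in T1α(+/+). Of the neural and neuroendocrine markers 2 of 4 fell in each genotype. Of the neutrophil markers 2 rose and 1 fell of 4 in T1α(-/-), and 2 rose of 5 in T1α(+/+). Of the fibroblast markers 1 rose and 1 fell of 5 in T1α(-/-), and 1 of 6 fell in T1α(+/+), and of the type I markers 1 of 4 fell in T1α(-/-) and 1 of 5 in T1α(+/+). The part of these lists in the members' changes was not tested.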

How the data were processed

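The authors deposited 1 table of MAS 5.0 signal intensities for the 16 arrays, a weighted mean over the probes of each probe set on a linear scale, scaled per array by the authors, and all columns of per-sample values were used (0 left out). Detection p-values were not used here. Signals were analysed as log2(signal + 16). Probe sets entered a test if the median signal of any group in it was above the level that 45% of its values exceeded, in place of the detection filter in the methods. Differences were tested with limma 3.58.1 (lmFit, eBayes with an intensity trend, R 4.3.3), 2-sided, with Benjamini-Hochberg adjustment over all probe sets tested. Single values were also compared by exact permutation tests (Python 3.11.15, scipy 1.17.1, numpy 2.4.6, pandas 2.3.3). Figures were drawn with matplotlib 3.10.9. The fit was tested on simulated data. Members were named with every array's value when the adjusted p was under 0.05 in any comparison, and other members by their range. The members and lists were chosen with earlier results of these data known. Alternatives included other scaling, filters, pseudocounts, covariates, array weights, the methods' t-test and leaving out arrays. Promoter windows and names came from RefSeq (GRCm38.p6) and the platform annotation.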

Additional observations from a re-analysis of the deposited data

Results flagged for a closer look

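An array was set against the other arrays of its group of 5 by Dixon's test, with a critical value of 0.71, for each of 33 members at E18.5. This marked 9 of 66 groups, 5 through array K and 2 through array M, where chance marks about 1 in 20 for independent, normally spread values. These signals are skewed and genes of 1 array vary together, and members under the filter on low signals, such as Pgam2, were included. Over all 12422 probe sets that are not controls the same rule marked 9.22% in T1α(-/-), against 3.03% of members, and 19.0% in T1α(+/+), against 24.2% of members. Array K was marked in 1.52% of all probe sets and 15.2% of members, array M in 0.845% and 6.06%, and array I in 15.3% and 3.03%. Array K (T1α(+/+), E18.5) was high in Pfkl (1083.1, others 438.3 to 561.2), Slc2a1 (404.8, others 27.0 to 90.4) and Adm (117.6, others 10.7 to 35.1). It was also high in P4ha1 (550.5, others 68.7 to 161.4) and Ndrg1 (1137.6, others 241.3 to 463.2). Array M of the same group was high in Pgam2 (290.3, others 2.0 to 53.2) and Eno3 (742.1, others 77.2 to 132.9). Array I of that group was low in Hif1a (319.9, others 880.3 to 1074.8). Array E (T1α(-/-), E18.5) was high in Pgam1 (668.4, others 305.6 to 392.7).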

How the results depend on the processing

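Between genotypes and for the difference in the change to term, 0 members passed under every alternative run, and the medians kept their direction except at E18.5, where leaving out 1 array gave -0.19 to 0.02. In T1α(-/-), leaving out 1 array gave 6 to 12 members past the threshold over time and medians of 0.03 to 0.42. The count was 6 without array F and 6 without E, F and M, of which E and F are in this genotype. The median was 0.66 with a filter at 25% (21 members), but -0.01 with Xist as a covariate. Leaving out G, N and O removes only G here, and the median was then 0.42. In T1α(+/+), leaving out 1 array gave 3 to 8 members and medians of -0.42 (without P) to 0.13, with 3 without N, 3 without O and 4 without J. The count was 4 after centring on the array median, 13 with array quality weights, 1 with the methods' t-test, 3 with the GAPDH ratio as a covariate, 0 with Xist as a covariate and 0 without G, N and O, where 1 wild-type term lung was left, assumed to vary like the other groups, so that the count says little. The median was 0.31 with a filter at 25% (22 members). Xist was lower in every wild-type term lung than in any wild-type E18.5 lung, so that covariate cannot be separated from time in T1α(+/+). Pdk1 in T1α(+/+) was at -0.00 with Xist as a covariate, and Hif1a in T1α(+/+) at -0.15 in the fit with that single term lung (without G, N and O). The cause was not tested. The sets without G, N and O and without E, F and M were chosen after seeing the data. Centring on the array median gave 1034 probe sets higher and 517 lower in T1α(-/-), against 851 and 803, and 679 and 229 in T1α(+/+), against 650 and 492. No paired analysis was possible because the groups share no replicate numbers.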
